A study of Homo sapiens with 30 samples.

Results

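The genes of the aryl hydrocarbon receptor (AHR) pathway were followed across 5 human cell lines treated with elraglusib. The set held 9 genes, the receptor AHR, its partner ARNT, its repressor AHRR and the target genes CYP1A1, CYP1A2, CYP1B1, TIPARP, NQO1 and ALDH3A1. A gene was read from a probe set that the platform annotation ties to that symbol alone, and where a gene had more than 1 such probe set, from the one with the highest mean over the 30 arrays. By this rule 8 of the 9 genes were measured, out of 22465 genes and 67528 probe sets in all. AHRR had no probe set of its own, since the only one that names it also names PDCD6, so no value is given for it. The 8 measured genes have 9 probe sets, CYP1B1 having 2 of them.

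Elraglusib (9-ING-41) is a small molecule inhibitor of the kinase GSK-3. The arrays compare cells kept for 24 h in elraglusib at 1 µM with cells kept for 24 h in the vehicle DMSO. RNA was hybridized to Human Transcriptome Array 2.0 chips, with 3 arrays per treatment and 6 per line. The colorectal cancer lines were HCT-116, HT-29 and KM12C, all long established, while NK-92 is a natural killer cell line and TALL-104 is a cytotoxic T cell line derived from a leukemia, both grown with IL-2. The dose of 1 µM is the one in the labels, given alike for every line, whereas the running text of the study describes treatment at IC-50 concentrations, and if doses differed by line then line and dose cannot be told apart in any comparison of responses. The labels call the 3 arrays of a group biological replicates without saying whether their cultures were separate. Each p-value thus reflects only a spread among arrays, which limma moderates with that of all probe sets. Comparisons between lines pool this spread over all arrays of the fit. All values below are log2 signals as deposited, and a difference is elraglusib minus DMSO on that log2 scale. A call means an adjusted p under 0.05 from limma, fitted on all probe sets of a line with Benjamini-Hochberg adjustment.

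AHR is a cytosolic transcription factor held by HSP90 and co-chaperones until it binds a ligand such as a dioxin, a planar aromatic hydrocarbon or a tryptophan metabolite. It then enters the nucleus, pairs with ARNT and binds xenobiotic response elements, whose core reads GCGTG. CYP1A1 is the classical readout of this step, while AHRR and TIPARP are induced by the receptor and act back on it as inhibitors.

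In HCT-116 and HT-29 cells the inducible targets CYP1A1, CYP1B1 and TIPARP rose with elraglusib, CYP1A1 by 2.44 ± 0.11 (SE) in HCT-116 cells and by 0.72 ± 0.12 (SE) in HT-29 cells, with 3 arrays per group. AHR itself fell in HT-29 cells. When all 30 arrays shared a fit, only CYP1A1 stayed called in HCT-116 cells, where CYP1B1 (adjusted p = 0.0721) and TIPARP (0.159) were lost. In HT-29 cells only CYP1B1 stayed called, and AHR (0.689), CYP1A1 (0.103) and TIPARP (0.464) were lost. That fit pools its standard errors over all lines and includes TALL-104 DMSO replicate 2, an array that went against its label. Between HT-29 and HCT-116 DMSO levels its standard error was 0.47 for AHR and 0.30 for TIPARP, against 0.14 and 0.09 without that array. With a replicate block the CYP1B1 (adjusted p = 0.0861) and TIPARP (0.0648) calls in HCT-116 cells were lost too. ARNT, CYP1A2, NQO1 and ALDH3A1 were not called in any line, and no gene of the set was called in KM12C, NK-92 or TALL-104 cells. Of the 8 measured genes, 3 were called up and 0 down in HCT-116 cells, where 0.817% of all probe sets were called up and 0.336% down. In HT-29 cells 3 were called up and 1 down, against 4.62% and 3.39% of all probe sets. In KM12C cells 0 were called, with 0.603% of all probe sets up and 0.894% down. NK-92 and TALL-104 cells had 0 calls among these genes and 0% of all probe sets called in either direction, although 2934 probe sets in NK-92 cells and 3280 in TALL-104 cells had an unadjusted p under 0.05. The median difference over the 8 genes was 0.36 in HCT-116, 0.08 in HT-29, 0.01 in KM12C, -0.13 in NK-92 and 0.49 in TALL-104 cells, beside a median over all probe sets of 0.02, 0, 0.11, -0.0033 and 0.06 in the same lines.

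One array went against its label. The array labelled TALL-104 DMSO replicate 2 had a mean correlation of 0.991 with the NK-92 arrays and 0.867 with the other TALL-104 arrays over 17407 probe sets, and the remaining 29 of 30 arrays matched their own line best. Its CD3G signal was 4.24, beside 16.14 to 16.35 on the other TALL-104 arrays, and its KLRD1 signal was 9.45, beside 4.14 to 4.25 on those arrays and 9.07 to 9.71 on the NK-92 arrays. Not every T cell or NK cell marker separated the lines this way. NCR1 read 11.54 on this array, 10.97 to 11.48 on the NK-92 arrays and 11.55 to 12.50 on the other TALL-104 arrays. CD3E read 13.63 on it, 13.22 to 13.51 on the NK-92 arrays and 14.13 to 14.35 on the other TALL-104 arrays. Responses of TALL-104 cells are therefore given with and without this array, and without it 0 probe sets were called in TALL-104 cells (3455 had an unadjusted p under 0.05) and the median over the 8 genes was 0.0042, beside 0.04 over all probe sets. The mean of 7 colorectal epithelial markers was 9.85 to 12.74 in the colorectal lines and at most 5.38 in the others, though CDX2 read 3.99 to 4.35 in HT-29 cells, VIL1 4.13 to 4.47 in HCT-116 cells and KRT20 4.73 to 6.31 in HCT-116 and 4.48 to 5.41 in KM12C cells. The mean of 6 cytotoxic lymphoid markers was 13.14 to 13.54 in NK-92 and TALL-104 cells and at most 4.81 in the colorectal lines, though CD2 read 5.26 to 5.60 on the other 5 TALL-104 arrays and CD7 5.57 to 5.75 in NK-92 cells. Array medians lay between 4.23 and 4.60, and in KM12C cells the number of called probe sets was 7265 without DMSO replicate 3 and 1011 with it.

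AHR, the ligand-binding receptor, had elraglusib arrays at 11.77, 11.92 and 12.21 in HT-29 cells, against DMSO arrays at 12.44, 12.65 and 12.57. All 3 elraglusib arrays lay below all 3 DMSO arrays. As these are bulk RNA samples, fewer cells that express a gene and less of its RNA per cell cannot be told apart. AHR fell by 0.59 on the log2 scale (SE 0.14, adjusted p = 0.0379), and the call held in 1 of 6 fits that left out an array, the one without elraglusib replicate 3, with adjusted p between 0.0197 and 0.130. In KM12C cells AHR read 13.59, 13.73 and 13.75 with elraglusib, against 14.55, 14.52 and 14.03 with DMSO, again without overlap. That difference was -0.68 (SE 0.16, adjusted p = 0.0820) and was not called, but without DMSO replicate 3, the lowest DMSO array, it was -0.84 with an adjusted p of 0.0128 (range over the 6 such fits 0.0128 to 0.289), where 4.93% of all probe sets were called down.

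In the other lines the receptor was not called. The HCT-116 arrays were at 12.37, 12.22 and 12.41 with elraglusib, against 11.87, 12.14 and 12.01 with DMSO, so that AHR stood higher with elraglusib here, by 0.33 (SE 0.11, adjusted p = 0.240). In NK-92 cells it read 10.96, 11.06 and 11.05 with elraglusib, against 10.72, 10.84 and 10.81 with DMSO, a difference of 0.23 (SE 0.10, adjusted p = 0.9999). Neither line showed overlap between its groups. TALL-104 cells had 14.23, 14.04 and 14.55 with elraglusib, against 14.48, 11.22 and 14.56 with DMSO, where 11.22 belongs to the array that resembles NK-92. With it the difference was 0.85 (SE 0.89), and without it -0.25 (SE 0.17, adjusted p = 0.926), so the sign in TALL-104 cells rests on that array.

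ARNT, the partner that AHR needs to bind DNA and that also serves the hypoxia factors, differed by little in any line. HT-29 cells had 8.86, 9.01 and 8.92 with elraglusib, against 9.22, 9.24 and 8.95 with DMSO, and the groups overlapped. This difference of -0.21 (SE 0.12, adjusted p = 0.473) was the widest of the 5 for ARNT. KM12C cells averaged 9.70 ± 0.04 with elraglusib and 9.85 ± 0.14 with DMSO, HCT-116 cells 9.69 ± 0.02 and 9.75 ± 0.07, and NK-92 cells 9.67 ± 0.08 and 9.67 ± 0.02 (SD, n = 3 each). In TALL-104 cells the difference was 0.03 with all arrays and -0.11 without the array that resembles NK-92.

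**Figure D1:**
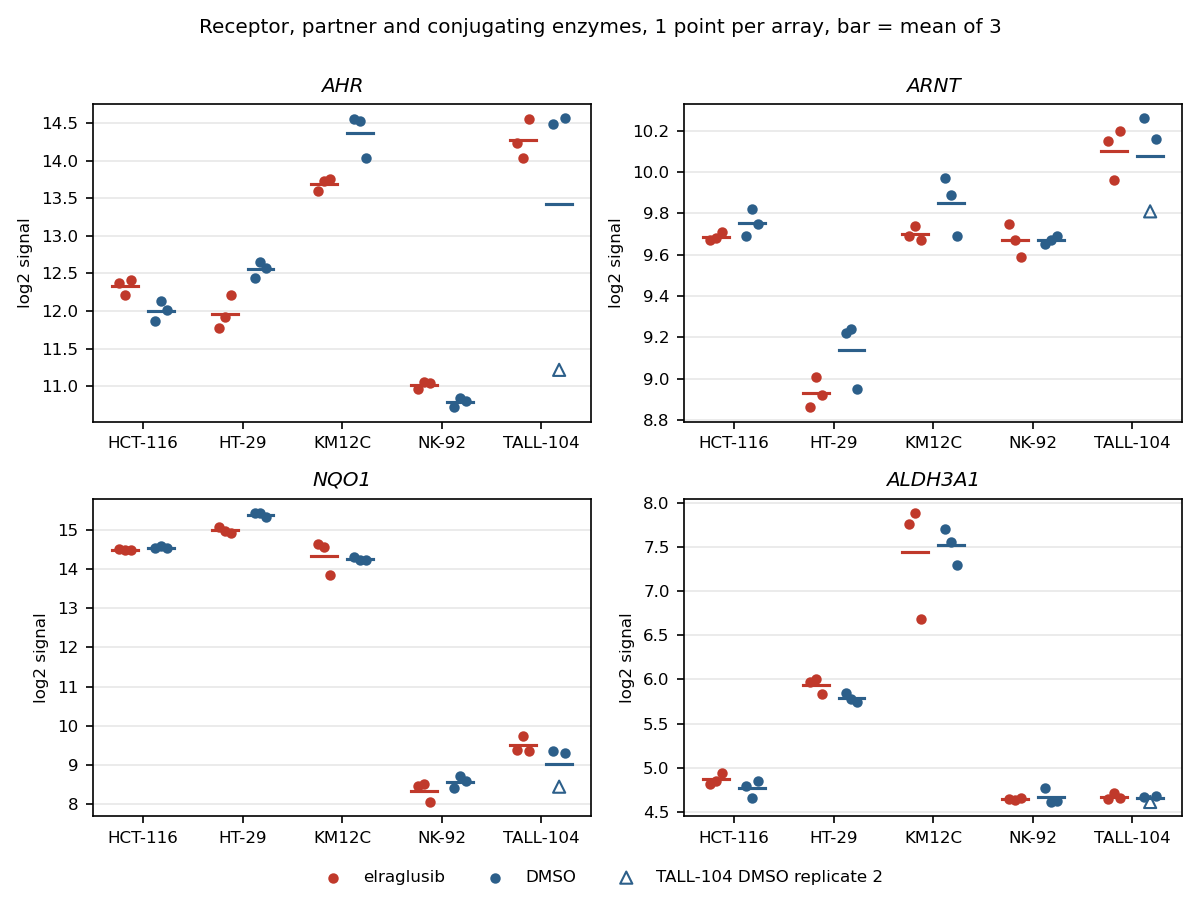
AHR, ARNT, NQO1 and ALDH3A1 on every array, with log2 signal on the y axis and the 5 lines on the x axis (elraglusib red, DMSO blue, 3 arrays per group, bars at group means). AHR lay lower with elraglusib in HT-29 (11.77 to 12.21, against 12.44 to 12.65 with DMSO) and KM12C cells, and the open triangle is the array labelled TALL-104 DMSO replicate 2, at 11.22 for AHR.

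CYP1A1 encodes the monooxygenase that oxidizes planar aromatic compounds. In HCT-116 cells its arrays read 7.16, 6.96 and 7.08 with elraglusib, against 4.53, 4.56 and 4.79 with DMSO. Both groups were tight and lay more than 2 log2 units apart. The rise of 2.44 (SE 0.11, adjusted p = 0.000474) is a fold of signal of 5.43, and it was called in all 6 fits that left out an array. In HT-29 cells the arrays were at 5.03, 5.00 and 5.28 with elraglusib, against 4.42, 4.34 and 4.39 with DMSO, without overlap. Here CYP1A1 rose by 0.72 (SE 0.12, adjusted p = 0.00672), a fold of 1.65, and again in all 6 such fits.

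The level of CYP1A1 without the drug was close to the middle of the array in HCT-116 and HT-29 cells. In DMSO cells its signal had a mean percentile of 57.0 among all probe sets in HCT-116 and 51.2 in HT-29 cells, beside 81.5 and 65.3 in the elraglusib cells of the same lines. The deposited values carry no detection call, so a DMSO signal of this size cannot be told apart from background. The folds and differences given for CYP1A1 are therefore of signal, background included, and do not give the size of the change in its RNA.

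KM12C cells had CYP1A1 at 5.75, 6.03 and 5.01 with elraglusib, against 5.17, 5.00 and 5.00 with DMSO. Elraglusib replicates 1 and 2 lay above every DMSO array and replicate 3 among them. The difference was 0.54 (SE 0.24, adjusted p = 0.291) and was 0.83 with an adjusted p of 0.0882 without elraglusib replicate 3 (0.0882 to 0.552 over the 6 fits that left out an array). The same replicate was also the lowest of its group for CYP1B1, NQO1 and ALDH3A1. In NK-92 cells CYP1A1 read 4.33, 4.38 and 4.20 with elraglusib, against 4.41, 4.45 and 4.49 with DMSO. The difference was -0.15 (SE 0.10, adjusted p = 0.9999), without overlap between the groups. Their mean percentiles were 43.6 with elraglusib and 48.7 with DMSO, so neither group can be told apart from background.

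TALL-104 cells had CYP1A1 at 6.01, 5.69 and 5.96 with elraglusib, against 5.83, 4.36 and 5.90 with DMSO. The value of 4.36 is that of the array that resembles NK-92, and the other DMSO arrays lay within the elraglusib range. The difference was 0.52 (SE 0.42, adjusted p = 0.823) with that array and 0.02 (SE 0.14, adjusted p = 0.996) without it.

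CYP1A2 is the liver-enriched relative of CYP1A1, transcribed from the opposite strand with its start 23317 bases away in the RefSeq promoter table. Its arrays in HCT-116 cells read 4.49, 4.60 and 4.58 with elraglusib, against 4.32, 4.03 and 4.13 with DMSO. The groups did not overlap, but the difference of 0.40 (SE 0.11, adjusted p = 0.147) was not called. It ranged from -0.12 to 0.27 in the other lines with all arrays. In TALL-104 cells it was 0.04 with the array that resembles NK-92 and 0.02 without it. Its mean percentile stayed between 37.6 and 54.8 in every group, near the middle of the array. CYP1A1 and CYP1A2 are close in sequence, and cross-hybridization between their probes was not tested.

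The promoters of CYP1A1 and CYP1A2 are shown with that of TIPARP because 2 of these genes were called in HCT-116 and HT-29 cells and CYP1A2, the neighbor of CYP1A1, was not. Sequences are from RefSeq (GRCh38.p14), run from 250 bases before to 50 after the annotated start, and carry the core GCGTG, on either strand, in capitals. The CYP1A1 window is chr15:74725479-74725778 (minus strand), the TIPARP window chr3:156674340-156674639 (plus strand, the first of 3 listed starts) and the CYP1A2 window chr15:74748595-74748894 (plus strand).
CYP1A1: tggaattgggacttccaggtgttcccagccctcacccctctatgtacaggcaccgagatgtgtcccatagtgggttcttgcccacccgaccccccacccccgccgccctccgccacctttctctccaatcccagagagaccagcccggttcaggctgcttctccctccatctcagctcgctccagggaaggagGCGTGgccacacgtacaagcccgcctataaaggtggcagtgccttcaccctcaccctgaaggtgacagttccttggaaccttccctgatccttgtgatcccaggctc
TIPARP: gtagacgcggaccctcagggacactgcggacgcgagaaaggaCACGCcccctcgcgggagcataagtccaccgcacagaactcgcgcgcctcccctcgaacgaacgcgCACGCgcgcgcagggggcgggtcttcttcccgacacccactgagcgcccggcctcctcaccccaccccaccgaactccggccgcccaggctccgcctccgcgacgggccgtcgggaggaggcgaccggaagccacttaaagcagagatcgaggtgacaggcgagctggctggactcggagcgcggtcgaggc
CYP1A2: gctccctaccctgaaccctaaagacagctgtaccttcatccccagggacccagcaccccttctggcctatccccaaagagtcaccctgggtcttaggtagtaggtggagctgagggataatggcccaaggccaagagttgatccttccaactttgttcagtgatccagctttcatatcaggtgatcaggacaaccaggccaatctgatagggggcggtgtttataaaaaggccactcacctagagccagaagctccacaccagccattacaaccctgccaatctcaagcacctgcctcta
The core occurred 1 time in the CYP1A1 window, 2 times in the TIPARP window shown, 0 times in the windows of the other 2 TIPARP starts and 0 times in the CYP1A2 window, and in 36.5% of all 35116 promoters of the table, overlapping matches counted. The longer form TNGCGTG was in none of these windows and in 5.51% of all promoters. Among the other genes AHR had 1 core match, ARNT 0 and NQO1 1, which was the longer form. AHRR had 1 core match, also of the longer form, at the first of its 2 listed starts and 2 at the other. In all, 7 of the 9 genes were in the table. A match describes letters only, and the known enhancer of CYP1A1 lies further upstream than this window.

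CYP1B1, a monooxygenase that hydroxylates estradiol and polycyclic hydrocarbons, is induced by AHR in many tissues. In HT-29 cells it read 9.46, 9.21 and 9.73 with elraglusib, against 8.51, 8.66 and 8.18 with DMSO. All elraglusib arrays were above all DMSO arrays, and the rise of 1.02 (SE 0.17, adjusted p = 0.00765), a fold of 2.02, was called in all 6 fits that left out an array. In HCT-116 cells the arrays were at 7.09, 7.16 and 6.79 with elraglusib, against 6.00, 5.77 and 5.97 with DMSO, also without overlap. This rise of 1.10 (SE 0.13, adjusted p = 0.0164), a fold of 2.14, was called in 1 of 6 such fits, the one without elraglusib replicate 3, with adjusted p from 0.0337 to 0.0754.

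The other CYP1B1 probe set gave the same picture in both lines. It read 5.72, 5.71 and 5.79 with elraglusib in HCT-116 cells, against 4.94, 4.87 and 4.86 with DMSO (difference 0.85, SE 0.09, adjusted p = 0.0101). In HT-29 cells it read 7.78, 7.97 and 8.43 with elraglusib, against 6.97, 7.34 and 6.79 with DMSO (difference 1.03, SE 0.20, adjusted p = 0.0144). The antisense gene CYP1B1-AS1 differed by 0.16 (adjusted p = 0.699) in HCT-116 and 0.17 (adjusted p = 0.700) in HT-29 cells and was not called. Its means were 3.93 with elraglusib and 3.78 with DMSO in HCT-116 cells, and 4.61 and 4.44 in HT-29 cells. These lie near or below the array medians, so it may have had no signal to change.

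KM12C cells had CYP1B1 at 9.23, 8.96 and 8.50 with elraglusib, against 8.98, 9.12 and 8.81 with DMSO. The groups overlapped, with a difference of -0.07 (SE 0.19, adjusted p = 0.848). In NK-92 cells the arrays were at 5.31, 4.63 and 4.87 with elraglusib, against 5.53, 4.96 and 5.15 with DMSO (difference -0.28, SE 0.21). TALL-104 cells had 6.96, 6.58 and 6.88 with elraglusib, against 6.79, 5.07 and 6.32 with DMSO, and the difference was 0.75 (SE 0.43) with the array that resembles NK-92, at 5.07, and 0.25 (SE 0.19) without it.

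TIPARP (PARP7) is a mono-ADP-ribosyltransferase that AHR induces and that dampens AHR in turn. In HCT-116 cells it read 8.46, 8.53 and 8.46 with elraglusib, against 7.38, 7.62 and 7.50 with DMSO. The groups did not overlap, and the rise of 0.98 (SE 0.10, adjusted p = 0.00944) is a fold of 1.98. It was called in 4 of 6 fits that left out an array, and not without elraglusib replicate 3 or without DMSO replicate 3 (adjusted p from 0.0281 to 0.0603). In HT-29 cells the arrays were at 8.38, 8.51 and 8.40 with elraglusib, against 7.94, 7.95 and 7.89 with DMSO, a rise of 0.50 (SE 0.11, adjusted p = 0.0215) that was called in 1 of 6 such fits, the one without DMSO replicate 3 (0.0433 to 0.107).

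In KM12C cells TIPARP read 8.26, 8.39 and 8.30 with elraglusib, against 8.07, 8.17 and 7.94 with DMSO. The groups did not overlap, but the difference of 0.26 (SE 0.12, adjusted p = 0.302) was not called. NK-92 cells had 6.10, 6.02 and 5.98 with elraglusib, against 6.35, 6.12 and 6.04 with DMSO. TALL-104 cells had 7.98, 8.25 and 8.11 with elraglusib, against 8.21, 6.16 and 8.23 with DMSO, and the difference was 0.58 (SE 0.56) with the array at 6.16 and -0.11 (SE 0.13) without it. The antisense gene TIPARP-AS1 differed by -0.01 in HCT-116 and -0.09 in HT-29 cells and was not called, with DMSO means of 4.44 and 4.55, near the array medians.

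**Figure D2:**
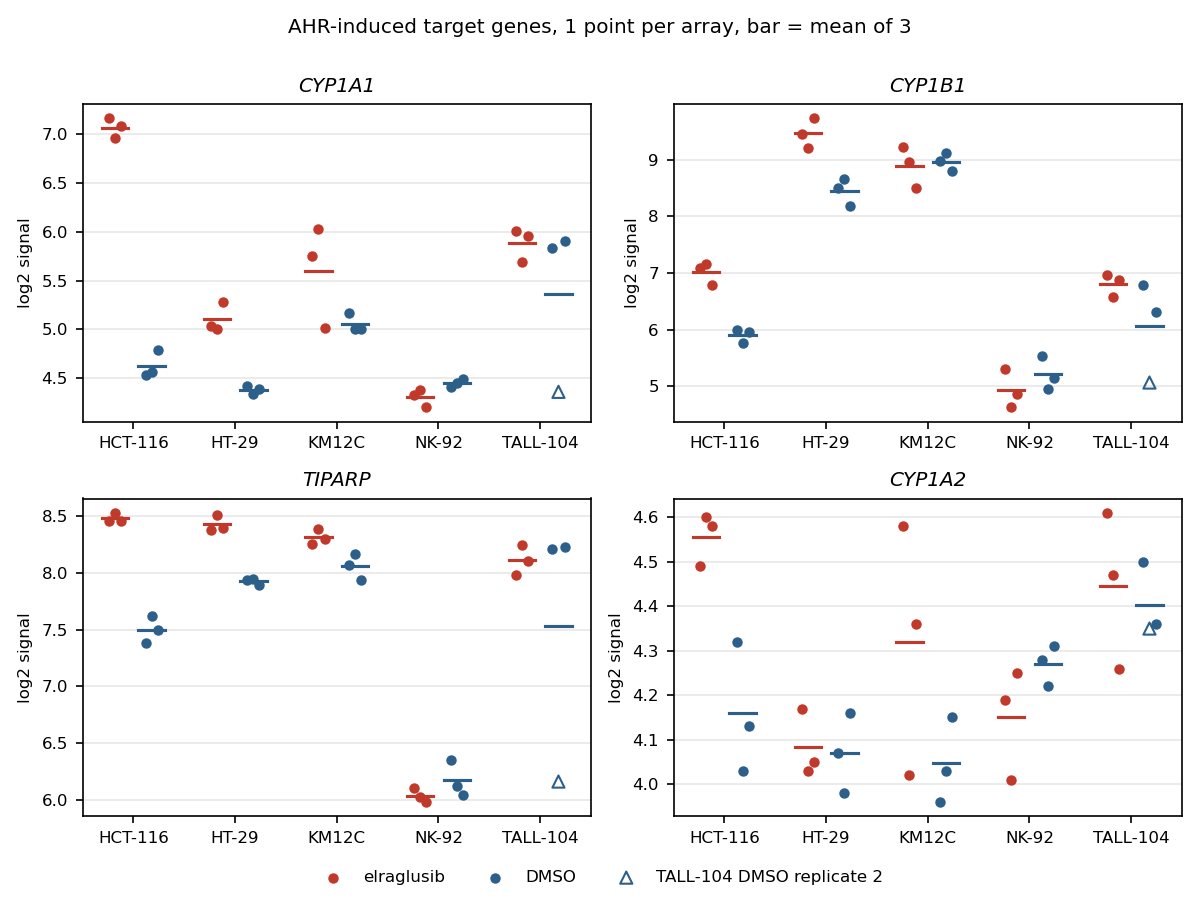
CYP1A1, CYP1B1, TIPARP and CYP1A2 on every array, with log2 signal on the y axis (a separate scale in each panel) and the 5 lines on the x axis (elraglusib red, DMSO blue, 3 arrays per group, bars at group means, open triangle the array labelled TALL-104 DMSO replicate 2). CYP1A1 in HCT-116 cells lay at 6.96 to 7.16 with elraglusib, against 4.53 to 4.79 with DMSO, the widest separation of the 4 panels.

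NQO1, a quinone reductase under both AHR and NRF2, was not called in any line. HT-29 cells read 15.07, 14.96 and 14.93 with elraglusib, against 15.42, 15.43 and 15.32 with DMSO, and all elraglusib arrays lay below all DMSO arrays. The difference was -0.40 (SE 0.11, adjusted p = 0.0605). HCT-116 cells read 14.52, 14.48 and 14.49 with elraglusib, against 14.53, 14.58 and 14.53 with DMSO (difference -0.05, SE 0.08). Signals this high lie at mean percentiles of 99.0 to 99.5 in the colorectal lines, and whether they approach saturation was not tested.

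In KM12C cells NQO1 was at 14.63, 14.55 and 13.85 with elraglusib, against 14.30, 14.23 and 14.24 with DMSO, where elraglusib replicate 3 lay below all other arrays and the other elraglusib arrays above all DMSO arrays. The difference of 0.09 (SE 0.20) became 0.33 without that replicate. NK-92 cells averaged 8.35 ± 0.25 with elraglusib and 8.58 ± 0.16 with DMSO, and TALL-104 cells 9.50 ± 0.21 and 9.04 ± 0.51 (SD, n = 3 each). The TALL-104 difference was 0.46 with the array that resembles NK-92 and 0.17 without it.

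ALDH3A1, an aldehyde dehydrogenase of the AHR battery, read at least 6.69 on all 6 KM12C arrays and at most 6.00 on the arrays of other lines. KM12C cells read 7.77, 7.89 and 6.69 with elraglusib, against 7.71, 7.56 and 7.30 with DMSO. The low value is again elraglusib replicate 3, and the difference was -0.07 (SE 0.30) with it and 0.31 without it. HT-29 cells averaged 5.94 ± 0.09 with elraglusib and 5.79 ± 0.06 with DMSO, and HCT-116 cells 4.87 ± 0.07 and 4.76 ± 0.10 (SD, n = 3 each). NK-92 and TALL-104 cells stayed between 4.61 and 4.77 on all arrays. In TALL-104 cells the ALDH3A1 difference was 0.01 with the array that resembles NK-92 and -0.0083 without it.

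**Figure D3:**
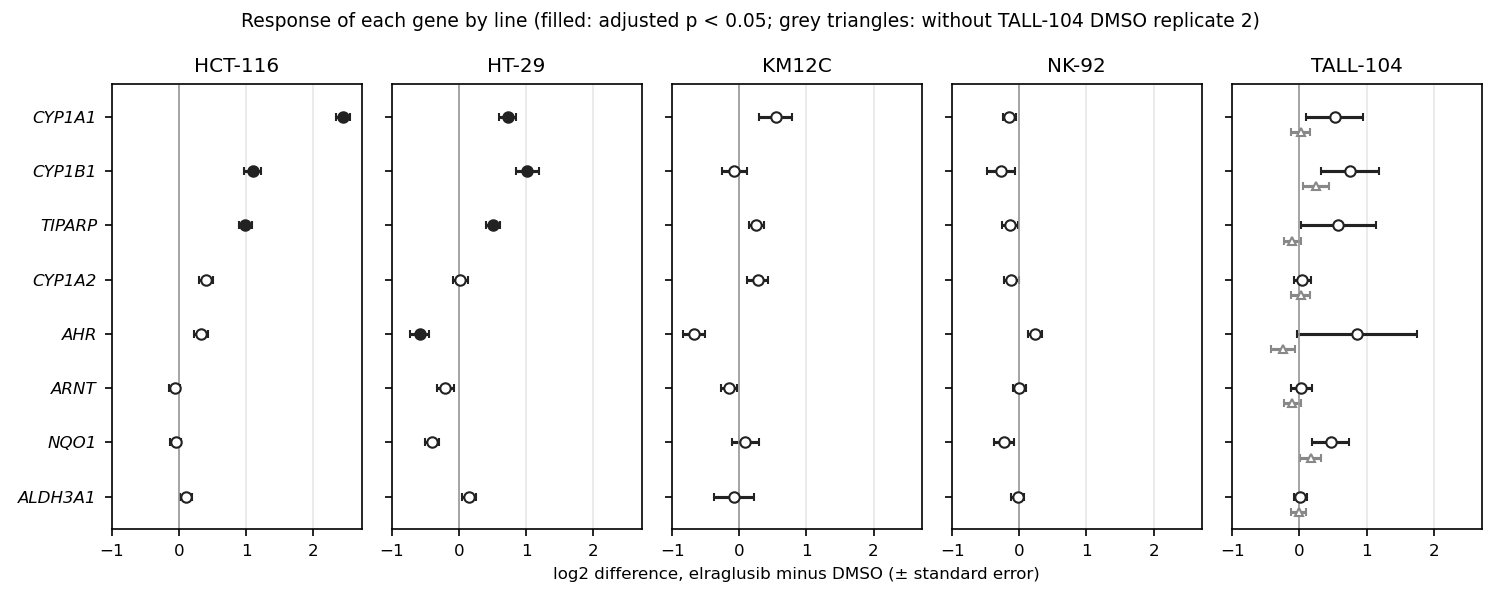
Difference between elraglusib and DMSO for the 8 genes in each line, on the x axis in log2 units with its standard error, 3 arrays per group (filled points have an adjusted p under 0.05). CYP1A1 at 2.44 in HCT-116 cells is the point farthest from 0, and in TALL-104 cells the grey triangles, without DMSO replicate 2, lie nearer 0 than the circles for CYP1A1, CYP1B1, TIPARP and AHR.

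Whether the responses differed between lines was tested by subtracting their treatment effects in a limma fit over all 30 arrays, for 10 pairs of lines and for the mean of the 3 colorectal lines minus the mean of NK-92 and TALL-104, 88 values over the 8 genes. Of these 88 contrasts 5 were called, all of them CYP1A1. Its DMSO signal could not be told apart from background in HCT-116, HT-29 and NK-92 cells. Its response in HCT-116 cells exceeded that in HT-29 cells by 1.72 (SE 0.37, adjusted p = 0.00516), that in KM12C cells by 1.90 (adjusted p = 0.0086), that in NK-92 cells by 2.59 (adjusted p = 0.000896) and that in TALL-104 cells by 1.92 (adjusted p = 0.0199). The mean of the colorectal lines exceeded that of the cytotoxic lines by 1.05 (SE 0.24, adjusted p = 0.0148).

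The share of all probe sets called in those contrasts was 4.02% for HCT-116 minus HT-29, 0.748% for HCT-116 minus KM12C, 0.185% for HCT-116 minus NK-92, 0.225% for HCT-116 minus TALL-104 and 2.45% for colorectal minus cytotoxic lines. The other contrasts had 0 calls among the 8 genes, beside 1.86% of all probe sets for HT-29 minus KM12C, 3.12% for HT-29 minus NK-92, 5.89% for HT-29 minus TALL-104, 0.465% for KM12C minus NK-92, 0.894% for KM12C minus TALL-104 and 0% for NK-92 minus TALL-104.

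Without the array that resembles NK-92, 22 of the 88 were called, and the standard error of the CYP1A1 contrast of HCT-116 minus HT-29 was 0.23, against 0.37 with it. The response of AHR in HCT-116 cells then exceeded that in HT-29 cells by 0.91 (SE 0.19, adjusted p = 0.00292) and that in KM12C cells by 1.00 (adjusted p = 0.00417). The AHR response of NK-92 cells likewise stood above those of HT-29 (HT-29 minus NK-92 -0.82, adjusted p = 0.00906) and KM12C cells (KM12C minus NK-92 -0.91, adjusted p = 0.0147). The AHR contrasts of HCT-116 minus NK-92 and of HT-29 minus KM12C were not called.

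TIPARP in that fit responded more in HCT-116 than in HT-29 cells, by 0.48 (SE 0.13, adjusted p = 0.0255), and more than in KM12C, NK-92 and TALL-104 cells, by 0.73, 1.12 and 1.09. It responded more in HT-29 than in NK-92 and TALL-104 cells, by 0.64 (adjusted p = 0.00281) and 0.61 (adjusted p = 0.00758). CYP1B1 responded more in HCT-116 than in KM12C cells, by 1.17 (SE 0.28, adjusted p = 0.0286), and more in HT-29 than in KM12C cells, by 1.09 (adjusted p = 0.0286). Against NK-92 cells the CYP1B1 response was larger by 1.38 in HCT-116 and by 1.29 in HT-29 cells. The colorectal mean exceeded the cytotoxic mean by 1.30 for CYP1A1, 0.70 for TIPARP and 0.69 for CYP1B1 (adjusted p = 0.0434).

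In the fit without that array the share of all probe sets called was 6.20% for HCT-116 minus HT-29, where 3 of the 8 genes were called, 1.90% for HCT-116 minus KM12C (4 genes), 0.495% for HCT-116 minus NK-92 (3 genes) and 0.387% for HCT-116 minus TALL-104 (2 genes). It was 3.80% for HT-29 minus KM12C (1 gene), 5.36% for HT-29 minus NK-92 (4 genes), 5.35% for HT-29 minus TALL-104 (1 gene), 1.29% for KM12C minus NK-92 (1 gene) and 3.22% for colorectal minus cytotoxic lines (3 genes). KM12C minus TALL-104, at 1.00%, and NK-92 minus TALL-104, at 0%, had 0 genes of the set called.

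**Figure D4:**
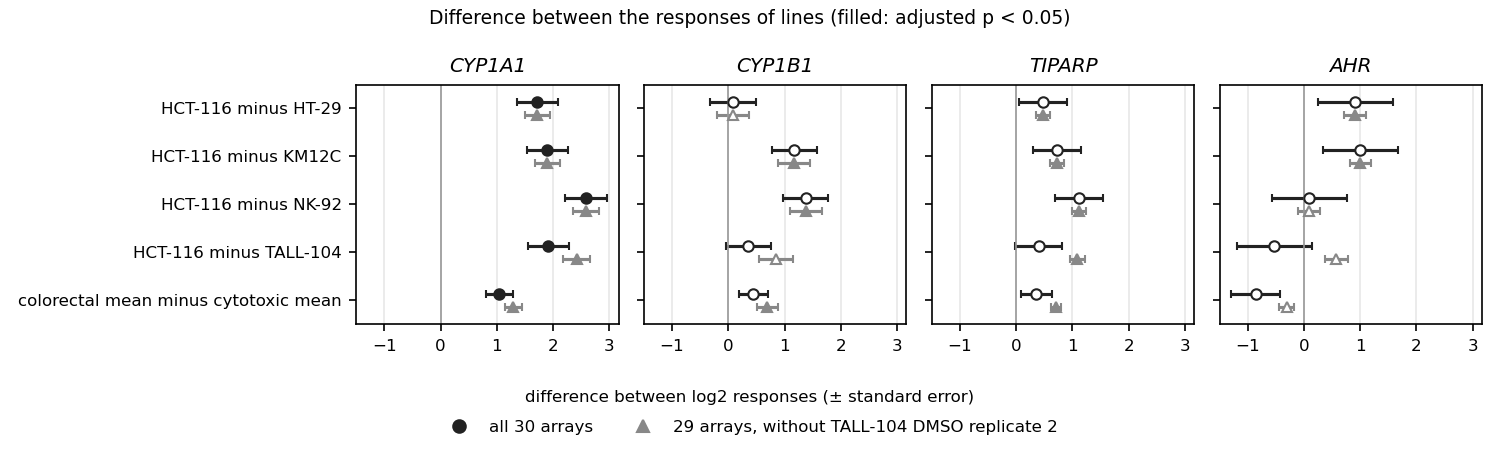
Difference between the treatment responses of lines for CYP1A1, CYP1B1, TIPARP and AHR, on the x axis in log2 units with its standard error (filled symbols have an adjusted p under 0.05). Circles are the fit over all 30 arrays, with calls for CYP1A1 only, and grey triangles the fit over 29 arrays without TALL-104 DMSO replicate 2, where standard errors are smaller.

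The lines also differed in their levels without the drug. In the fit over all 30 arrays 42 of the 80 comparisons of DMSO levels (8 genes, 10 pairs of lines) were called, and 57 without TALL-104 DMSO replicate 2. Without that array AHR was highest in TALL-104 cells (14.52, mean of 2 arrays) and KM12C cells (14.37 ± 0.29), whose difference was not called (adjusted p = 0.470). HT-29 (12.55 ± 0.11), HCT-116 (12.01 ± 0.14) and NK-92 cells (10.79 ± 0.06, SD, n = 3 each) followed, each lower than the line before it (adjusted p = 1.03e-10, 0.00348 and 5.66e-08). With all 30 arrays no neighbors in the AHR order were called.

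Among the target enzymes the order was not shared. In the fit without the array that resembles NK-92, NQO1 was highest in HT-29 cells (15.39 ± 0.06), above HCT-116 cells (14.55 ± 0.03, adjusted p = 9.75e-05). HCT-116 cells were not called above KM12C cells (14.26 ± 0.04, adjusted p = 0.217). Their DMSO arrays did not overlap, at 14.53 to 14.58 in HCT-116 and 14.23 to 14.30 in KM12C cells. The standard error of that comparison, 0.15, is pooled over all lines. TALL-104 (9.34, mean of 2 arrays) and NK-92 cells (8.58 ± 0.16) were more than 4 log2 units below KM12C cells. ALDH3A1 was highest in KM12C cells (7.52 ± 0.21), above HT-29 cells (5.79 ± 0.06, adjusted p = 4.32e-08) and these above HCT-116 cells (4.76 ± 0.10, adjusted p = 9.35e-05). CYP1B1 was at 8.97 ± 0.16 in KM12C and 8.45 ± 0.25 in HT-29 cells, a difference that was not called (adjusted p = 0.0773). Their DMSO arrays did not overlap, at 8.81 to 9.12 in KM12C and 8.18 to 8.66 in HT-29 cells. CYP1B1 was lower in TALL-104 (6.56), HCT-116 (5.91 ± 0.13) and NK-92 cells (5.21 ± 0.29), in that order. With all 30 arrays the calls for NQO1 and ALDH3A1 held (adjusted p = 0.00198 between HT-29 and HCT-116 cells for NQO1, and 5.07e-08 and 0.000111 for ALDH3A1), with NQO1 at 9.04 in TALL-104 cells. CYP1B1 in TALL-104 cells was then at 6.06, and neither its difference from HCT-116 cells (adjusted p = 0.773) nor that of HCT-116 from NK-92 cells (adjusted p = 0.0746) was called.

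CYP1A1 in DMSO cells was highest in TALL-104 cells (5.87, mean of 2 arrays), above KM12C cells (5.06 ± 0.10, adjusted p = 0.000786). KM12C, HCT-116 (4.63 ± 0.14), NK-92 (4.45 ± 0.04) and HT-29 cells (4.38 ± 0.04) had no called neighbors. Even so, the KM12C arrays (5.00 to 5.17) lay above the HCT-116 arrays (4.53 to 4.79), and these above the NK-92 arrays (4.41 to 4.49). The HT-29 arrays (4.34 to 4.42) overlapped those of NK-92. TIPARP was at 8.22 in TALL-104, 8.06 ± 0.12 in KM12C and 7.93 ± 0.03 in HT-29 cells, with no called neighbors among these, above HCT-116 (7.50 ± 0.12, adjusted p = 0.000969) and NK-92 cells (6.17 ± 0.16, adjusted p = 1.04e-11). ARNT was lowest in HT-29 cells (9.14 ± 0.16), below NK-92 cells (9.67 ± 0.02, adjusted p = 3.97e-05). It was highest in TALL-104 cells (10.21), above KM12C cells (adjusted p = 0.00755). For CYP1A2 no neighbors were called. These adjusted p values are from the fit without the array that resembles NK-92. With all 30 arrays TALL-104 cells were not called above KM12C cells for CYP1A1 (5.36, adjusted p = 0.402) or ARNT (10.08, adjusted p = 0.115). TIPARP was then at 7.53 in TALL-104 cells, and HT-29 cells were not called above HCT-116 cells (adjusted p = 0.478), while HCT-116 stayed above NK-92 cells (adjusted p = 0.00108). ARNT stayed lower in HT-29 than in NK-92 cells (adjusted p = 0.000285).

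The share of all probe sets called between DMSO levels over all 30 arrays was 16.8% for HCT-116 minus HT-29, 17.7% for HCT-116 minus KM12C, 26.5% for HCT-116 minus NK-92, 27.0% for HCT-116 minus TALL-104 and 16.1% for HT-29 minus KM12C. It was 26.9% for HT-29 minus NK-92, 25.7% for HT-29 minus TALL-104, 28.8% for KM12C minus NK-92, 28.4% for KM12C minus TALL-104 and 13.2% for NK-92 minus TALL-104. Without TALL-104 DMSO replicate 2 the same shares were 20.3%, 21.2%, 29.7%, 30.5%, 19.4%, 30.1%, 29.8%, 32.2%, 32.4% and 21.1%, in the same order of pairs.

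The wider pathway was described with 7 gene lists. Among 12 measured further AHR targets, 0 were called in HCT-116 cells (median 0.06), where 0.817% of all probe sets were called up and 0.336% down. In HT-29 cells 0 rose and 4 fell (median -0.03), against 4.62% of all probe sets up and 3.39% down, and 3 fell without elraglusib replicate 2 or without DMSO replicate 1. ABCG2, a drug efflux transporter, fell by 1.57 in HT-29 cells (10.44 ± 0.25 with elraglusib and 12.01 ± 0.06 with DMSO, SD, n = 3 each, adjusted p = 0.000276). CDKN1B, the cell cycle inhibitor p27, fell by 1.38 (7.46 ± 0.05 with elraglusib and 8.85 ± 0.12 with DMSO, adjusted p = 0.000175). NEDD9, a scaffold of focal adhesions, fell by 0.68 (4.44 ± 0.07 with elraglusib and 5.12 ± 0.02 with DMSO, adjusted p = 0.00477). Its elraglusib mean lay near the array medians, so the size of that fall is of signal, background included. The HT-29 response thus held AHR targets that rose and others that fell. Among the 12 further targets GSTA1 had every group mean below 4.23, the lowest array median. Both means lay below it for SCIN in every line but KM12C and for VAV3 in every line but TALL-104. The same held for STC2 in NK-92 cells. A missing call there may be a missing signal.

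Of the 5 measured chaperones and coactivators of AHR, 1 fell in HT-29 cells (3.39% of all probe sets fell), the coactivator NCOA2, by 0.63 (9.16 ± 0.08 with elraglusib and 9.79 ± 0.00 with DMSO, adjusted p = 0.00728), and 0 were called elsewhere. The 5 bHLH-PAS relatives (ARNT2, HIF1A, EPAS1, SIM1 and SIM2), the 6 tryptophan enzymes that make AHR ligands and the 5 measured genes of the PXR and CAR receptors, which govern other drug-metabolizing enzymes, had 0 calls in every line. The medians of these 3 lists lay between -0.08 and 0.15. IDO1, IDO2, TDO2 and KMO had every group mean below 4.23, the lowest array median. Both means of a line lay below it for CYP3A4 outside HT-29, NR1I3 outside NK-92 and SIM1 outside TALL-104 cells. The same held for CYP2B6 in HCT-116, HT-29 and NK-92 cells and for CYP3A5 in NK-92 and TALL-104 cells. It also held for KYNU in KM12C and NK-92 cells and for ARNT2 in HT-29 cells. For such genes a missing call cannot tell an unchanged gene from one without signal. Others, such as HIF1A, read far above the array medians.

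NRF2 shares NQO1 with AHR as a target, and 1 of its 9 other measured targets was called up in HCT-116 cells, as were 0.817% of all probe sets. HMOX1, heme oxygenase 1, rose by 0.92 (7.35 ± 0.01 with elraglusib and 6.43 ± 0.05 with DMSO, SE 0.08, adjusted p = 0.00633), a call lost without elraglusib replicate 3, while the median of the list was 0.01. HIF1, which also pairs with ARNT, had 6 measured targets, of which 3 fell in HT-29 cells (median -0.26), VEGFA by 0.82 (adjusted p = 0.00328), the kinase PDK1 by 0.69 (adjusted p = 0.00488) and the oxygen sensor EGLN3 by 0.52 (adjusted p = 0.0302). Of all probe sets in HT-29 cells 3.39% fell, and 2 of these 6 targets were called in 5 of 6 fits that left out an array, the exception being the one without DMSO replicate 3. VEGFA also fell in KM12C cells, by 1.11 (7.42 ± 0.02 with elraglusib and 8.53 ± 0.23 with DMSO, adjusted p = 0.0104), a call lost without DMSO replicate 1, in a line where 0.894% of all probe sets fell. No gene of the 7 lists was called in NK-92 or TALL-104 cells.

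In KM12C cells these counts moved with DMSO replicate 3. Without that array 4 of the 12 further AHR targets, 2 of the 5 chaperones and coactivators, 1 of the 5 bHLH-PAS relatives, 1 of the 9 NRF2 targets and 2 of the 6 HIF1 targets fell, where 4.93% of all probe sets fell, against 0.894% with all arrays.

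**Figure D5:**
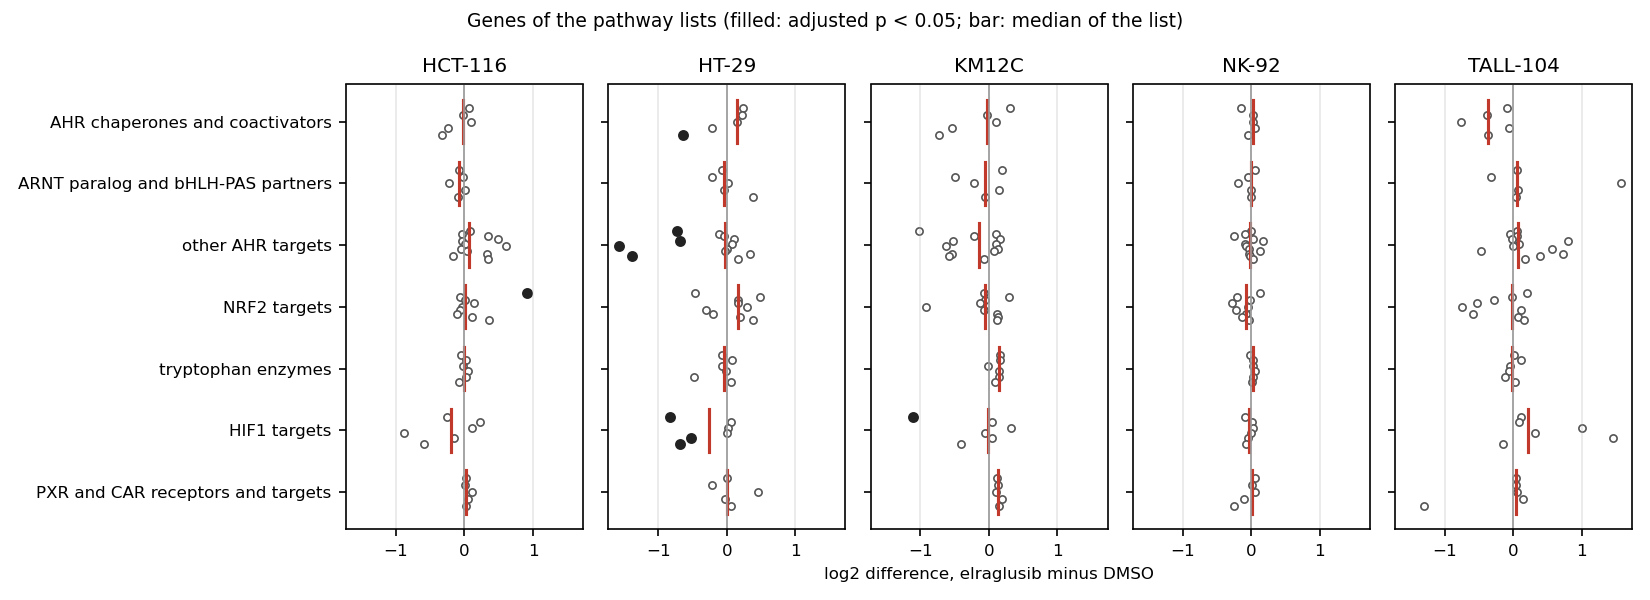
Difference between elraglusib and DMSO (log2, x axis) for each measured gene of the 7 pathway lists in the 5 lines, with the list median as a red bar and genes with an adjusted p under 0.05 filled. In HT-29 cells 4 of 12 further AHR targets and 3 of 6 HIF1 targets were filled, all left of 0, and HMOX1 in HCT-116 cells, at 0.92, was the only filled point to the right of 0.

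The genes whose levels over the 10 group means (5 lines, 2 treatments) were most like CYP1A1 were TRIAP1 (Pearson r = 0.95), the pseudogene SH3GL1P2 (r = 0.93) and the stress-response factor ATF3 (r = 0.93). Without TALL-104 DMSO replicate 2 TRIAP1 (r = 0.96) and ATF3 stayed among the first 3. TRIAP1 differed by 1.65, 0.82 and 0.80 in HCT-116, HT-29 and KM12C cells, and ATF3 by 1.45, 0.43 and 0.31. Those most like AHR were EPC1 (r = 0.99), RAB19 (r = 0.97) and ZNF234 (r = 0.97), the same 3 with and without that array. These are descriptions over means that share arrays and lines, chosen as the highest of 22465 genes.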

How the data were processed

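Values were deposited for 67528 probe sets of 30 Human Transcriptome Array 2.0 chips as log2 signal with 2 decimals, made by the authors with the Transcriptomic Analysis Console. For its version, the normalization and the genome build the sources used here give nothing. RNA was isolated in batches of 6 and arrays were run in 2 batches, but the batch of each array is not given, so no batch term could be fitted. Of all columns, 0 belonged to other samples. These log2 values entered the fits without a further step or filter. The number of arrays limits the precision.

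Elraglusib and DMSO arrays were compared within a line by limma (version 3.58.1, R 4.3.3) with default lmFit and eBayes (two-sided, Benjamini-Hochberg over all probe sets, adjusted p under 0.05). Responses and DMSO levels were compared between lines in 1 fit over all arrays. The fit was tested on simulated data. The platform annotation gave 1 symbol to 23781 probe sets, several to 1543 and none to 42204.

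All 9 genes were described, with up to 3 called genes with the smallest p of each pathway list and line, and the 3 genes most like CYP1A1 and AHR. CYP1B1-AS1 and TIPARP-AS1 were added later as antisense genes. Members and lists were chosen with earlier results of these data known. Alternatives were quantile normalization, a filter at the 40th percentile of mean signal, trend and robust eBayes, 1 fit over 30 arrays, array weights, a replicate block, the methods' paired t-test, 1 probe set per gene and leaving out each array. Leaving out TALL-104 DMSO replicate 2 or KM12C DMSO replicate 3 for lists, likeness and single contrasts was chosen after seeing the data.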

Additional observations from a re-analysis of the deposited data

Results flagged for a closer look

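The response of CYP1A1 to elraglusib differed between lines by the test of the difference itself, in a limma fit over 30 arrays. The difference between responses was 1.72 for HCT-116 minus HT-29, 1.90 for HCT-116 minus KM12C, 2.59 for HCT-116 minus NK-92 and 1.92 for HCT-116 minus TALL-104 cells, and 1.05 for the mean of the colorectal lines minus the mean of the cytotoxic lines. These were the only 5 of 88 contrasts called with all arrays. Without TALL-104 DMSO replicate 2 the contrast of HCT-116 minus TALL-104 was 2.42 and that of colorectal minus cytotoxic lines 1.30. In HCT-116, HT-29 and NK-92 cells the DMSO signal of CYP1A1 cannot be told apart from background, and the other lines have no detection call either. These are therefore differences of signal.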

How the results depend on the processing

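With 3 arrays per group, counts of called genes depended on the fit. The fit over 30 arrays includes the array that resembles NK-92, and its standard errors are pooled over all lines. In HCT-116 cells 3 genes were called, but 1 (CYP1A1) when the 30 arrays shared a fit, 1 (CYP1A1) with a replicate block and 0 with the methods' paired t-test. When each array was left out CYP1A1 was called every time, and CYP1B1 and TIPARP were never called together. In HT-29 cells 4 were called, but 1 (CYP1B1) in the fit over 30 arrays, 0 with the methods' t-test and 2 to 3 when each array was left out. The paired t-test is named in the study's general statistics, not in its array methods. It called 4 of 67528 probe sets in HCT-116 and 5 in HT-29 cells, so its counts of 0 say little about these genes. In KM12C cells 0 were called, but 1 (AHR) with array weights, 1 with a single probe set per gene and 0 to 1 when each array was left out. CYP1A1 in HCT-116 cells was called under every alternative but the methods' t-test. Calls between responses of lines numbered 5 with all arrays, 6 with quantile normalization, 6 with the replicate block and 22 without TALL-104 DMSO replicate 2, where TIPARP for HT-29 minus TALL-104 turned to 0.61. NQO1 in HT-29 cells was called with quantile normalization (-0.48), array weights (-0.43), the dim filter, trend and robust eBayes and a single probe set per gene, and CYP1A2 in HCT-116 cells with the last of these alone (0.40).

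Same-numbered arrays had deviations correlated between -0.341 and 0.152, so replicate numbers were not taken as pairs. DMSO levels could not be fitted with a block within lines. Quantile normalization shifted the median difference over all probe sets in KM12C cells by -0.105 and changed no call of a gene of the set there.

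Some uncalled differences changed sign. Quantile normalization gave ARNT in NK-92 cells -0.016, CYP1A2 in TALL-104 cells -0.034 and ALDH3A1 in TALL-104 cells -0.064, and array weights gave ARNT and ALDH3A1 in TALL-104 cells -0.058 and -0.012. Leaving out each array gave CYP1A2 in HT-29 cells -0.032 to 0.058, in KM12C cells CYP1B1 -0.24 to 0.13, NQO1 -0.057 to 0.33 and ALDH3A1 -0.29 to 0.31, in NK-92 cells ARNT -0.04 to 0.04 and ALDH3A1 -0.052 to 0.028, and in TALL-104 cells AHR -0.25 to 1.42, ARNT -0.11 to 0.12, CYP1A2 -0.038 to 0.14, TIPARP -0.11 to 0.93 and ALDH3A1 -0.0083 to 0.027. The NRF2 list had 1 call in HT-29 cells without DMSO replicate 3. The causes were not tested.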
